A study of Mus musculus with 6 samples.

Results

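Complex I of the respiratory chain is built from nuclear genes whose symbols begin with Nduf and from mitochondrial genes. The genes described here are the protein-coding nuclear genes with such a symbol, 46 of the 54532 genes measured. They were divided by name into 38 structural genes and 8 assembly factors (Ndufaf). Messenger RNA had been sequenced from hearts of 3 mice of genotype Ythdc1flox/flox, which carry floxed Ythdc1 alleles (flox control), and 3 of genotype Ythdc1-CKO, the conditional knockout of this nuclear reader of the RNA mark m6A (CKO). Values of single libraries are listed in the order 1, 2, 3 within each genotype. All 6 mice had normal chow for 15 days. The Cre driver, the age and the sex of the mice are not given in the sources used here. Members were taken by symbol and biotype, a rule set with earlier results of these data known. All 46 passed the filter of a mean of 1 FPKM (fragments per kilobase of gene, scaled to library size).

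Complex I takes electrons from NADH, passes them along flavin and iron-sulfur clusters to ubiquinone, and pumps protons across the inner mitochondrial membrane. Its peripheral arm holds the N module, which oxidises NADH, and the Q module, which reduces ubiquinone. Its membrane arm is the proton pump, with the mitochondrially encoded subunits at its centre. Core subunits carry the catalysis and are conserved from bacteria, accessory subunits surround them, and assembly factors help to build the complex but are not part of it. Heart muscle is rich in mitochondria and depends on this chain for most of its ATP. Ndufa4 and Ndufa4l2 carry the family's name, but the Ndufa4 protein is now placed with complex IV, and Ndufa4l2 is its paralog. They were therefore counted as structural genes by the name rule but kept apart from the 36 complex I subunits.

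Ythdc1, the targeted gene, stood at 4.31, 3.64 and 4.10 FPKM in the floxed hearts and at 2.39, 2.57 and 2.34 FPKM in the knockouts (log2 fold change -0.54, SE 0.09, limma adjusted p = 0.0150; exact 2-sided permutation p = 0.1, the smallest that 20 arrangements give), and CKO 3 was as low as the others. That call ended on dropping CKO 3 (adjusted p = 0.0540) or either of flox controls 1 (0.0712) and 3 (0.0648), and after rescaling to TPM (0.0944). Recovered gene reads numbered between 17434296 and 19360428 per library, and the Nduf genes took 1.04%, 1.17% and 1.02% of them in the floxed hearts and 0.771%, 0.758% and 0.895% in the knockouts. CKO 3 was the only library with Xist above trace level (12.4 FPKM, at most 0.0155 elsewhere) and held hardly any Y-linked Ddx3y (0.350 FPKM, 10.8 to 15.9 elsewhere), so its sex-linked expression differed from that of the other 5, and results are also given without it.

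Nuclear complex I transcripts were lower in the CKO hearts almost throughout the family, by modest amounts and with few single genes past the test. The log2 fold change (CKO minus flox control, on log2(FPKM + 1)) was negative for 45 of 46 genes, with Ndufa4l2 the exception. The median over the 46 genes was -0.40, beside 0.01 over the 12144 genes tested, of which 48.9% were negative. By limma, 5 genes fell with an adjusted p under 0.05, namely the assembly factor gene Ndufaf1 and the subunit genes Ndufs1, Ndufb10, Ndufab1 and Ndufb2. These 5 of 46 stand beside a background of 5.49% of all tested genes called lower, and 0 members were called higher. All 3 CKO libraries lay below all 3 flox controls in 24 of 46 genes, against 17.4% of all tested genes. At an unadjusted p under 0.05, 23 of 46 members were lower, against 13.8% of all tested genes. No member passed without flox control 1, flox control 2 or CKO 2, or with no filter on low values, and 16 passed when every library was rescaled to the same sum over nuclear protein-coding genes.

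**Figure D1:**
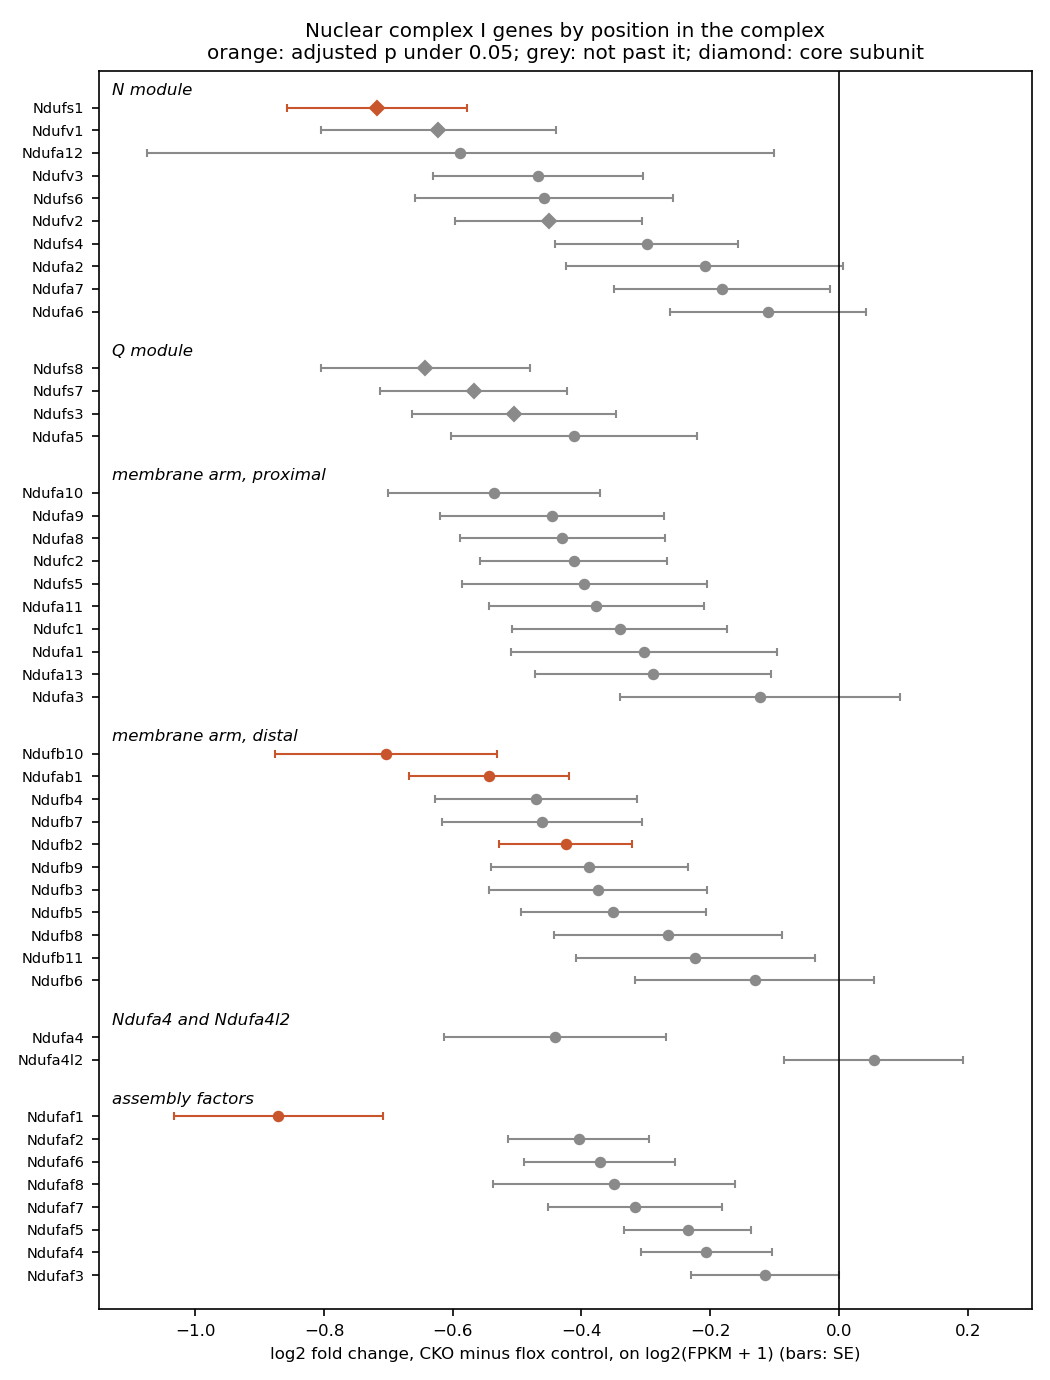
Log2 fold change (CKO minus flox control, on log2(FPKM + 1)) of 45 nuclear complex I genes on the x axis, with bars for the standard error, grouped by position in the complex. Orange marks the 5 genes with an adjusted p under 0.05, diamonds mark core subunits, and every point except Ndufa4l2 lies left of 0.

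Promoters of the called genes are shown for orientation, since several known regulators of respiratory genes act there. The 4 sequences below are 260 bases each, from 250 before the annotated start of transcription to 10 after it, in RefSeq's GRCm38.p6, read 5′ to 3′ on the gene's strand. Ndufs1 was not among the 40 of 46 members with a matched entry. Capitals mark the motif named for each gene. Ndufaf1, at chr2:119662825-119663084 on the minus strand, holds the ETS motif CGGAAG, the sequence that GABP binds, with its first base 17 before the start. Ndufb10, at chr17:24724414-24724673 on the minus strand, holds the NRF1 motif GCGCANGCG 2 bases before the start. Ndufb2, at chr6:39592315-39592574 on the plus strand, holds AAGGTCA, the core of the site bound by the estrogen-related receptors, 181 bases before it. Ndufab1, at chr7:122101839-122102098 on the minus strand, holds none of the 3.
Ndufaf1: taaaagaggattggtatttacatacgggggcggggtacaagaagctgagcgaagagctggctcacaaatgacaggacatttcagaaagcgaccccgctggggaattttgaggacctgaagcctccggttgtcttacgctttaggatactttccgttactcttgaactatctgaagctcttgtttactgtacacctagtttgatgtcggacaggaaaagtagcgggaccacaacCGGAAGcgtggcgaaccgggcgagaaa
Ndufb10: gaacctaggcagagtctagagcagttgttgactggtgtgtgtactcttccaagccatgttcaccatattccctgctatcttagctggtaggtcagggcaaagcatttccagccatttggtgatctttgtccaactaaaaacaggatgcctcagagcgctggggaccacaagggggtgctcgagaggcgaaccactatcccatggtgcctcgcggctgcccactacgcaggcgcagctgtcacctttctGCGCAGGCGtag
Ndufb2: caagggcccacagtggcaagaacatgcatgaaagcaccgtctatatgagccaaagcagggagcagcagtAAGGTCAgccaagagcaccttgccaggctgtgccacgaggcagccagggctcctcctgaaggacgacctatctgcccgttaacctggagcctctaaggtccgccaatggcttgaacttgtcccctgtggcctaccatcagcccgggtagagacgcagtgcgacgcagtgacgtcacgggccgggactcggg
Ndufab1: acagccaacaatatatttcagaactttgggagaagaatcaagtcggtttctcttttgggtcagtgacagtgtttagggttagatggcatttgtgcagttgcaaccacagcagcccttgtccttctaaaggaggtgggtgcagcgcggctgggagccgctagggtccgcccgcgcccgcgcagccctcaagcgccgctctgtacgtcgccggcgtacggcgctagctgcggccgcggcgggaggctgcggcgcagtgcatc

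Each motif was searched on both strands in the 300-base windows around gene starts. AAGGTCA was present for 3 of 40 member genes (7.5%), against 3.05% of the windows of tested protein-coding genes and 4.72% of all windows. GCGCANGCG was present for 10 of 40 (25%), against 13.6% and 6.25%. CGGAAG was present for 14 of 40 (35%), against 31% and 16.9%. By class, CGGAAG lay in the windows of 6 of 7 matched assembly factor genes and of 8 of 33 structural genes. GCGCANGCG can overlap its own match on the other strand, and these counts are of genes, so such a site counts once. A match describes letters in a window and is not a bound site.

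All 7 core subunits of the peripheral arm had every CKO library below every flox control. Their median log2 fold change was -0.57 (range -0.72 to -0.45), a median mean-FPKM ratio of 0.674. The 29 accessory subunits had a median of -0.39 (range -0.70 to -0.11), and 11 of 29 did not overlap between groups. Over all tested genes 17.4% had every CKO library below every flox control. The core median was the lower of these medians under the main analysis and each of 18 alternatives, but the difference between core and accessory genes was not tested. One core gene, Ndufs1, fell by limma at an adjusted p under 0.05. All 7 had an unadjusted p under 0.05, against 13.8% of all tested genes lower at that threshold.

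Ndufs1 (ENSMUSG00000025968, GRCm38 chr1:63143596-63176833, minus strand) encodes the largest subunit of the N module, which holds several of the iron-sulfur clusters. It stood at 88.8, 77.6 and 74.9 FPKM in the floxed hearts and at 43.4, 45.4 and 57.5 FPKM in the knockouts. The groups did not overlap, and CKO 3 was the highest CKO library. From a mean of 80.4 ± 7.33 to one of 48.8 ± 7.64 FPKM (SD, n = 3 each), this was a log2 fold change of -0.72 (SE 0.14, limma adjusted p = 0.0259). Leaving out flox control 1 (adjusted p = 0.105), 2 (0.0715) or 3 (0.0719), or CKO 2 (0.0735), ended the call. Its exons overlap Ino80dos over 6.05% and Eef1b2 over 0.111% of its length on the opposite strand, and reads there cannot be told apart.

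Its N module partners Ndufv1, which binds NADH and the flavin, and Ndufv2, which carries an iron-sulfur cluster, did not pass. Ndufv1 stood at 298, 269 and 254 FPKM in the floxed hearts and at 164, 149 and 227 FPKM in the knockouts (log2 fold change -0.62, SE 0.18, adjusted p = 0.0762). Ndufv2 stood at 194, 222 and 174 FPKM in the floxed hearts and at 133, 135 and 163 FPKM in the knockouts (-0.45, SE 0.14, adjusted p = 0.0975). In both, CKO 3 came closest to the controls without reaching them. The N module as a whole had a median of -0.45 over 10 genes, 4 of them without overlap, against 17.4% of all tested genes.

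Among these 10 genes, Ndufa12, an accessory subunit at the base of the N module, varied most within groups. It stood at 97.1, 114 and 38.9 FPKM in the floxed hearts and at 52.4, 30.0 and 79.2 FPKM in the knockouts. Flox control 3 lay below CKO 1 and CKO 3, so the groups overlapped (log2 fold change -0.59, SE 0.49, adjusted p = 0.486). Highest over lowest was 2.94-fold within flox controls and 2.64-fold within CKO, beside medians over members of 1.23-fold and 1.40-fold. Ndufa6, at the other end of the N module genes, had a log2 fold change of -0.11.

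In the Q module, which reduces ubiquinone, 0 of 5 genes passed by limma. At an unadjusted p under 0.05, 4 were lower, against 13.8% of all tested genes. Even so, all 5 had CKO libraries below every flox control, against 17.4% of all tested genes. Their median was -0.55. In Ndufa5 the gap was small, with 258 FPKM in CKO 3 against 260 FPKM in flox control 1 (limma adjusted p = 0.218). Ndufa9, listed here with the proximal membrane arm, overlapped between groups (178 FPKM in CKO 3, 171 FPKM in flox control 3). Ndufs8, a subunit with iron-sulfur clusters, stood at 221, 258 and 186 FPKM in the floxed hearts and at 132, 131 and 161 FPKM in the knockouts (log2 fold change -0.64, SE 0.16, adjusted p = 0.0528). Ndufs7, which holds the last cluster before ubiquinone, stood at 171, 194 and 157 FPKM in the floxed hearts and at 117, 102 and 133 FPKM in the knockouts (-0.57, SE 0.14, adjusted p = 0.0536). These lay just outside the threshold and passed as lower on reads analysed by voom (adjusted p = 0.0288 for Ndufs8 and 0.0324 for Ndufs7), the only Q module genes to do so.

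Ndufs3, the scaffold of this module, stood at 120, 124 and 107 FPKM in the floxed hearts and at 74.8, 72.8 and 102 FPKM in the knockouts (-0.50, SE 0.16, adjusted p = 0.0912). Without CKO 3 it passed as lower (adjusted p = 0.0476), as did Ndufv1 (0.0413).

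Subunits of the membrane arm held 3 of the 5 called genes, all listed here with its distal section. The protein of one of these, Ndufab1, is also bound to the peripheral arm. Of 11 distal genes 3 fell and 6 did not overlap between groups. Of 10 proximal genes 0 fell by limma (4 at an unadjusted p under 0.05, 0 by voom) and 3 did not overlap. Of all tested genes 5.49% were called lower, 13.8% were lower at an unadjusted p under 0.05 and 17.4% did not overlap in this direction. The medians were alike, -0.39 in each set. Whether the sets differ was not tested.

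Ndufb10 (ENSMUSG00000040048, chr17:24722060-24724478, minus strand), an accessory subunit on the distal arm, stood at 392, 482 and 357 FPKM in the floxed hearts and at 228, 233 and 293 FPKM in the knockouts. The groups did not overlap. From a mean of 410 ± 64.2 to one of 251 ± 36.0 FPKM (SD, n = 3 each), this was a log2 fold change of -0.70 (SE 0.17, limma adjusted p = 0.0473). Without any 1 of the 6 libraries the call was lost (adjusted p from 0.0580 without CKO 3 to 0.137 without flox control 1).

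Ndufab1 (ENSMUSG00000030869, chr7:122085403-122101886, minus strand) encodes the mitochondrial acyl carrier protein, which also serves fatty acid and lipoate synthesis. It stood at 42.0, 47.3 and 37.3 FPKM in the floxed hearts and at 26.5, 27.6 and 31.7 FPKM in the knockouts, again without overlap. The log2 fold change was -0.54 (SE 0.12, limma adjusted p = 0.0394), lost without any 1 library (0.0609 to 0.130). The processed pseudogene Ndufab1-ps stood at 120, 132 and 98.1 FPKM in the floxed hearts and at 66.3, 76.9 and 91.5 FPKM in the knockouts (-0.57, adjusted p = 0.0759). Reads of a gene and its processed pseudogene may be split between them, so the level of Ndufab1 is uncertain.

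Ndufb2 (ENSMUSG00000002416, chr6:39592574-39603382, plus strand), a small subunit of the distal arm, stood at 5.51, 5.97 and 4.99 FPKM in the floxed hearts and at 3.73, 3.45 and 4.33 FPKM in the knockouts. The groups did not overlap (log2 fold change -0.42, SE 0.10, limma adjusted p = 0.0467), and the call was lost without any 1 library (0.0605 to 0.144). Its level rests on 377 to 590 reads per library over an annotated gene length of 5628 bases. Whether this gene model takes up most reads of the gene was not tested, so the level of Ndufb2 is uncertain.

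**Figure D2:**
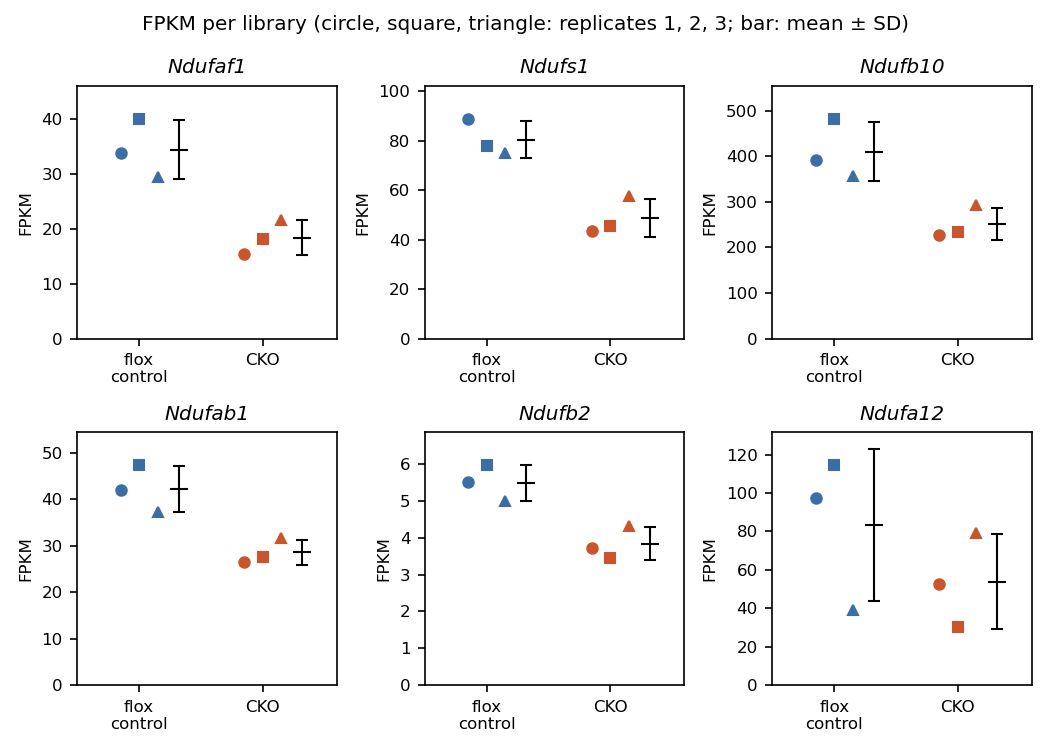
Level in FPKM (y axis from 0) of the 5 called genes and of Ndufa12 in each library, with blue for flox control and orange for CKO, a circle, square and triangle for libraries 1, 2 and 3, and a bar for the mean ± SD. In the 5 called genes all CKO points lie below all flox control points, and in Ndufa12 flox control 3 (38.9 FPKM) lies below CKO 1 and CKO 3.

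On the proximal membrane arm, Ndufa10, a subunit related to nucleoside kinases, had the most negative value. It stood at 182, 187 and 157 FPKM in the floxed hearts and at 103, 115 and 148 FPKM in the knockouts (log2 fold change -0.54, SE 0.16, adjusted p = 0.0876), with no overlap. The small X-linked subunit gene Ndufa1, by contrast, stood at 349, 351 and 338 FPKM in the floxed hearts and at 309, 206 and 346 FPKM in the knockouts (-0.30, adjusted p = 0.393), so CKO 3 lay within the control range and CKO 2 far below it. Ndufb11, also X-linked and on the distal arm, also had its lowest value in CKO 2 and its CKO 3 value within the control range, at 383, 411 and 350 FPKM in the floxed hearts and 336, 259 and 398 FPKM in the knockouts (-0.22, adjusted p = 0.490). Ndufa3 had the value nearest to 0 on this arm, at -0.12, and without CKO 2 it was 0.11.

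Ndufa4, the most abundant member, stood at 453, 477 and 390 FPKM in the floxed hearts and at 311, 277 and 389 FPKM in the knockouts. CKO 3 and flox control 3 were almost level, and the gene did not pass (log2 fold change -0.44, SE 0.17, adjusted p = 0.153). Ndufa4l2, known as a hypoxia-inducible gene, was the only member with a positive value. It stood at 28.5, 29.4 and 26.7 FPKM in the floxed hearts and at 25.6, 35.9 and 27.4 FPKM in the knockouts (0.05, SE 0.14, adjusted p = 0.847). The sign rested on CKO 2, without which it was -0.09.

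All 8 assembly factor genes had negative log2 fold changes, with a median of -0.33. Their median level over the 6 libraries was 11.6 FPKM, against 156 FPKM for the structural genes. One fell, Ndufaf1, and 5 of 8 did not overlap between groups (Ndufaf1, Ndufaf2, Ndufaf5, Ndufaf6 and Ndufaf7). Over all tested genes, 5.49% were called lower and 17.4% did not overlap in this direction. Ndufaf1 (ENSMUSG00000027305, chr2:119655446-119662827, minus strand) acts in the complex that assembles the membrane arm. It stood at 33.8, 39.9 and 29.3 FPKM in the floxed hearts and at 15.3, 18.1 and 21.6 FPKM in the knockouts, well apart. Group means of 34.4 ± 5.34 and 18.4 ± 3.15 FPKM (SD, n = 3 each) gave a ratio of 0.534 and the most negative log2 fold change among the members, -0.87 (SE 0.16, limma adjusted p = 0.0226). The call ended on leaving out either of flox controls 1 (adjusted p = 0.0876) and 2 (0.0672), or CKO 2 (0.0638).

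Of the others, Ndufaf2, which takes the place of Ndufa12 during assembly, stood at 4.75, 5.93 and 4.65 FPKM in the floxed hearts and at 3.67, 3.28 and 3.85 FPKM in the knockouts (log2 fold change -0.40, adjusted p = 0.0619). Over 65.7% of its length it overlaps a long noncoding gene on the opposite strand, which was listed at 0 FPKM. Ndufaf6, which acts in early assembly, stood at 11.3, 13.3 and 10.8 FPKM in the floxed hearts and at 7.72, 9.49 and 9.47 FPKM in the knockouts (-0.37, adjusted p = 0.0935). Both had groups that did not overlap.

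The modifying enzymes and the Q module chaperones did not pass. Ndufaf7, a protein arginine methyltransferase, stood at 8.36, 9.44 and 7.99 FPKM in the floxed hearts and at 5.43, 6.98 and 7.86 FPKM in the knockouts (log2 fold change -0.32, adjusted p = 0.189). Ndufaf5, which hydroxylates an arginine of Ndufs7, stood at 8.76, 10.2 and 8.50 FPKM in the floxed hearts and at 7.13, 8.16 and 7.59 FPKM in the knockouts (-0.23, adjusted p = 0.181). Ndufaf8, its partner, stood at 20.6, 23.9 and 22.4 FPKM in the floxed hearts and at 19.0, 12.6 and 21.3 FPKM in the knockouts (-0.35, adjusted p = 0.281). In the last of these CKO 2 was low and CKO 3 lay within the controls. Ndufaf4, a chaperone of the Q module, stood at 15.2, 17.8 and 17.5 FPKM in the floxed hearts and at 13.7, 15.8 and 13.8 FPKM in the knockouts (-0.21, adjusted p = 0.244). Ndufaf3, with which it acts, stood at 12.6, 15.2 and 12.3 FPKM in the floxed hearts and at 13.6, 11.3 and 11.9 FPKM in the knockouts (-0.11, adjusted p = 0.576). The groups overlapped in both of these chaperone genes.

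**Figure D3:**
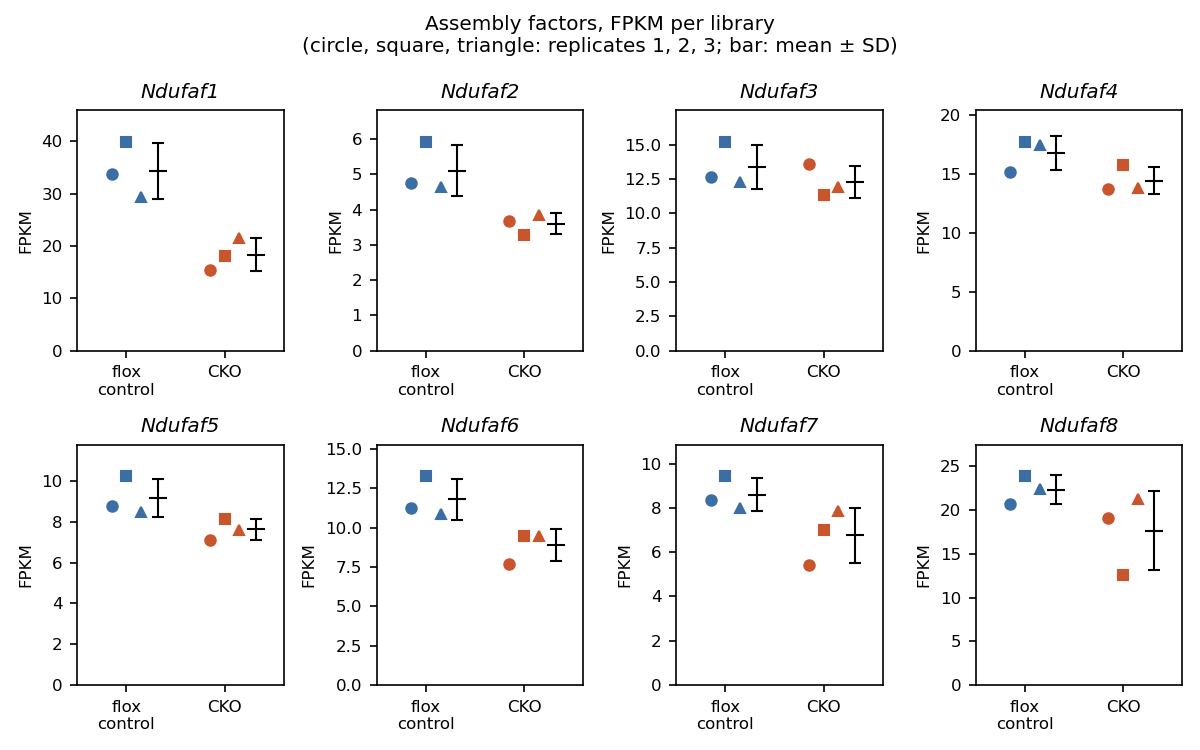
Level in FPKM (y axes from 0, 1 panel per gene) of the 8 Ndufaf genes in each library, with blue for flox control and orange for CKO, a circle, square and triangle for libraries 1, 2 and 3, and a bar for the mean ± SD. The groups lie apart in Ndufaf1, Ndufaf2, Ndufaf5, Ndufaf6 and Ndufaf7 and overlap in Ndufaf3, Ndufaf4 and Ndufaf8.

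Assembly factors with other names were read from a list of 14, of which 13 were tested and Coa1 was not matched by name. Of these, 3 fell (against 5.49% of all tested genes), 12 were negative, and the median was -0.28. Tmem70, which acts in assembly of complexes I and V, stood at 46.2, 51.0 and 43.7 FPKM in the floxed hearts and at 27.6, 26.5 and 28.1 FPKM in the knockouts (log2 fold change -0.75, SE 0.10, limma adjusted p = 0.00819). Tmem186 stood at 8.63, 9.13 and 8.09 FPKM in the floxed hearts and at 4.32, 5.18 and 5.01 FPKM in the knockouts (-0.72, SE 0.09, adjusted p = 0.00844). Acad9 stood at 5.81, 6.72 and 5.58 FPKM in the floxed hearts and at 3.54, 3.87 and 3.49 FPKM in the knockouts (-0.60, SE 0.09, adjusted p = 0.0131). The CKO libraries lay close together in all 3 genes, CKO 3 included. The calls of Tmem70 and Tmem186 passed in each of 18 alternatives, while that of Acad9 was lost without flox control 1 (0.0559) and after rescaling to TPM (0.0753).

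The proteins of Acad9 and Tmem186 act with Ndufaf1, Ecsit and Tmem126b in one intermediate complex of membrane arm assembly, a grouping made here after the values were seen. Ecsit stood at 30.2, 32.5 and 27.1 FPKM in the floxed hearts and at 21.8, 24.2 and 27.2 FPKM in the knockouts (log2 fold change -0.28, adjusted p = 0.177). Tmem126b stood at 7.24, 6.02 and 7.84 FPKM in the floxed hearts and at 5.94, 4.80 and 5.95 FPKM in the knockouts (-0.29, adjusted p = 0.183). Neither of these last genes passed.

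The 7 mitochondrially encoded complex I subunits showed no member past the limma test, with 5 negative and a median of -0.25. At an unadjusted p under 0.05, 1 was lower, mt-Nd3, against 13.8% of all tested genes. This proton pump subunit stood at 260, 145 and 208 FPKM in the floxed hearts and at 158, 30.6 and 53.6 FPKM in the knockouts (log2 fold change -1.62, SE 0.57, adjusted p = 0.122). CKO 1 lay inside the control range, and without it the gene passed as lower (0.0114). For mt-Nd6, which lies opposite mt-Nd5, the log2 fold change was -0.35 (adjusted p = 0.494). The positive genes were mt-Nd2 (0.40, adjusted p = 0.522) and mt-Nd1 (0.05, adjusted p = 0.939). Over the 7 genes the mean deviation from the flox control mean was 0.25, -0.21 and -0.03 in the floxed hearts. In the knockouts it was 0.06, -0.92 and -0.08, so CKO 2 alone lay below the control range.

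Other respiratory complexes gave medians of the same sign, and their counts of lower genes stand beside 5.49% of all tested genes. Complex II had a median of -0.55 with 1 of 4 genes lower, Sdhc (adjusted p = 0.0348). Complex III had -0.48 with 2 of 9 lower, Uqcrc1 (0.0406) and Uqcrfs1 (0.0435). Complex IV had -0.34 with 1 of 13 lower, Cox7a1, the heart and muscle isoform, at 710, 731 and 560 FPKM in the floxed hearts and 378, 207 and 339 FPKM in the knockouts (0.0361). Of these 13 genes 11 were negative, while Cox6a1 (0.43, adjusted p = 0.353) and Cox8a (0.34, adjusted p = 0.336) were positive. Complex V had -0.36 with 0 of 15 called by limma, the lowest adjusted p being 0.0645 for Atp5f1. At an unadjusted p under 0.05, 5 of its genes were lower, against 13.8% of all tested genes. The ubiquinone synthesis and electron transfer flavoprotein genes, which supply ubiquinone and electrons to the chain, had -0.47 with 3 of 13 lower, namely Pdss2 (0.0102), Etfa (0.0272) and Etfb (0.0382). Each of these calls was lost without at least 1 library, up to an adjusted p of 0.152 for Uqcrfs1 without flox control 1. No test compared these sets with the Nduf genes.

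Of 12 regulators of respiratory genes, 3 passed, in both directions, and the median was -0.07. Among all 12144 genes tested, 691 were called higher and 667 lower. Hif1a, the oxygen-sensitive transcription factor, rose from 20.2, 21.4 and 17.0 FPKM in the floxed hearts to 33.7, 33.0 and 37.3 FPKM in the knockouts (log2 fold change 0.80, SE 0.11, limma adjusted p = 0.0106). Esrrb, an estrogen-related receptor, rose from 2.48, 3.22 and 2.17 FPKM to 4.78, 4.35 and 4.44 FPKM (0.62, SE 0.12, adjusted p = 0.0265). Gabpa, the DNA-binding subunit of GABP, fell from 11.3, 10.3 and 10.4 FPKM to 7.20, 6.85 and 7.03 FPKM (-0.54, SE 0.08, adjusted p = 0.0107). None of the 3 overlapped between groups, and CKO 3 was as far from the controls as the other CKO libraries. Among all 12144 genes tested, 2058 had every CKO library above every flox control, and 2111 had every one below. Gabpa overlaps Atp5j on the opposite strand and is uncertain to that extent. Without flox control 1 these calls were lost (adjusted p = 0.0505 for Hif1a, 0.103 for Esrrb and 0.0551 for Gabpa), that of Esrrb also without flox control 3 (0.0785), CKO 2 (0.0642) or CKO 3 (0.0727). The Gabpa call was also lost after rescaling to TPM (0.0706), and that of Esrrb with no filter on low values (0.0667). Esrra, Nrf1, Tfam and Ppargc1a did not pass, with log2 fold changes of -0.21, 0.04, 0.06 and -0.22.

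The 6 libraries ordered the members in a repeated way. Flox control 2 was the highest library in 42 of 46 genes, and the lowest was CKO 2 in 29 and CKO 1 in 17. CKO 3 exceeded the lowest flox control in 20 genes, CKO 1 in 5 and CKO 2 in 2. The mean deviation of the 46 genes from the flox control mean, in log2 units, was -0.01, 0.16 and -0.15 in the floxed hearts and -0.45, -0.56 and -0.16 in the knockouts. CKO 3 thus lay level with flox control 3 over the family. For core subunits the CKO values were -0.69, -0.73 and -0.32, below flox control 3 (-0.15) in each library. For accessory subunits they were -0.41, -0.60 and -0.10, and for Ndufaf genes -0.42, -0.39 and -0.26. Without CKO 3 the family median moved from -0.40 to -0.50 and 39 of 46 genes did not overlap, against 22.2% of all tested genes.

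**Figure D4:**
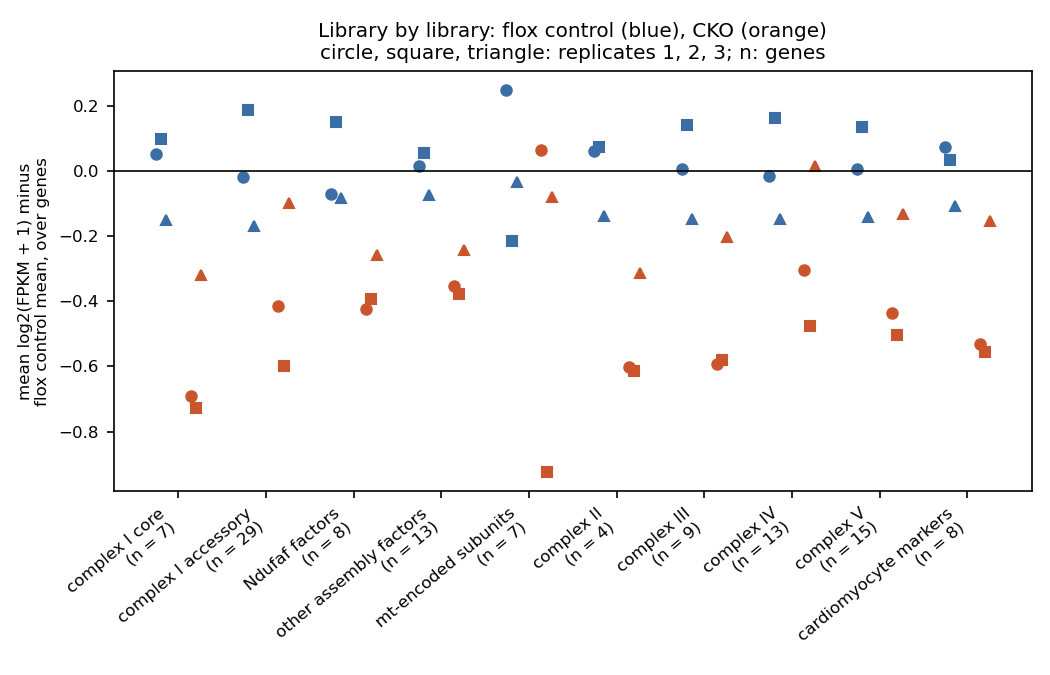
Mean over the genes of each set of log2(FPKM + 1) minus the flox control mean (y axis) in each library, for complex I core and accessory subunits, assembly factors, mitochondrially encoded subunits, complexes II to V and cardiomyocyte markers, with the number of genes on the x axis, blue for flox control, orange for CKO, and a circle, square and triangle for libraries 1, 2 and 3. CKO 3 lies above CKO 1 and CKO 2 in each nuclear set, at -0.32 for core subunits, -0.10 for accessory subunits and -0.15 for cardiomyocyte markers.

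Markers of several cell types differed between libraries. The summed level of 8 cardiomyocyte markers was 18321, 20164 and 16244 FPKM in the floxed hearts and 12630, 13589 and 16886 FPKM in the knockouts. Of the 8, 7 were negative (median -0.38) and 1, Tnni3, fell, a call lost without any 1 library except CKO 3 (limma adjusted p from 0.0679 to 0.123). Their mean deviations in CKO 1, 2 and 3 were -0.53, -0.56 and -0.15, the same order as the Nduf genes over these libraries; over flox controls the order differed (0.07, 0.03 and -0.11). Summed fibroblast markers were 511 to 660 FPKM in flox controls and 627 to 946 FPKM in CKO. Of these 8, 2 were negative (Lum and Dcn) and only Tcf21 was called, as higher. Endothelial markers were 304 to 312 and 227 to 297 FPKM, with 5 of 6 negative and only Tie1 called, as lower. Macrophage markers were 102 to 206 FPKM in flox controls and 692, 132 and 81.8 FPKM in CKO 1, 2 and 3, with 0 of 6 negative. Atrial markers were 71.0 to 298 and 33.1 to 49.1 FPKM, with 3 of 4 negative and only Sln called, as lower. Leaving out 1 library ended the Tcf21 call for flox controls 1 and 2 and CKO 3 (adjusted p up to 0.0641), the Sln call for flox controls 1 and 3 and CKO 2 and 3 (up to 0.143), and the Tie1 call for each library (up to 0.120). Smooth muscle and pericyte markers (397 to 760 and 361 to 523 FPKM) and erythroid markers (724 to 1119 and 636 to 1275 FPKM) overlapped. Adipocyte and lymphocyte markers reached at most 0.470 and 2.58 FPKM, and epicardial markers 4.62 to 6.38 FPKM. In bulk tissue fewer cardiomyocytes and less RNA per cardiomyocyte cannot be told apart, and the part of these markers in the Nduf values was not tested.

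Gene structure varied with the fold change among subunit genes. Over the 38 structural genes, Spearman's rho of log2 fold change was -0.51 with the length of the principal transcript and -0.47 with its exon number. Over 10855 tested protein-coding genes these were near 0 (-0.002 and -0.03). Core genes had a median of 9 exons, accessory genes 4. Within the 29 accessory genes rho was -0.47 for length and -0.16 for exons, and within the 7 core genes -0.07 and -0.40. These correlations are across genes that share the same 6 libraries and are given as descriptions.

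**Figure D5:**
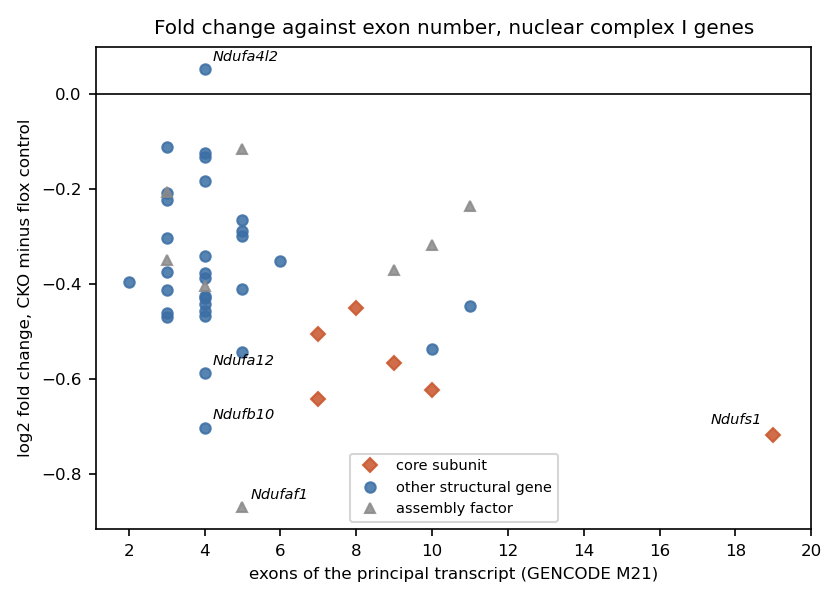
Log2 fold change against the number of exons in the principal GENCODE M21 transcript for 45 genes, with diamonds for core subunits, circles for other structural genes and triangles for assembly factors. Core subunits have 7 to 19 exons and lie between -0.72 and -0.45, and the genes with few exons spread from -0.87 (Ndufaf1) to 0.05 (Ndufa4l2).

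Overlapping gene models limit some members. Of the 46, Ndufa13 overlaps Tssk6 over 30.0% of its length, Ndufb6 overlaps Smim27 over 39%, Ndufb9 overlaps Gm49356 over 19.5% on the same strand, Ndufb11 overlaps Rbm10 over 12.9%, Ndufb5 overlaps Mrpl47 over 12.3% and Ndufa2 overlaps Tmco6 over 11.5%. None of these 6 genes passed. Since FPKM divides by the annotated gene length, which for Ndufb7 was 4522 bases against 623 in its principal transcript, levels of different genes compare only roughly.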

How the data were processed

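The deposited values are FPKM for each gene in 6 libraries, made by the authors from poly-A selected, paired-end mouse heart RNA; per the labels' protocols random hexamers primed the cDNA, and strand marking is not described there. Per the submitters' processing notes, CASAVA, HISAT2 2.0.5, featureCounts 1.5.0-p3, DESeq2 1.20.0 and GRCm38.p6 were used; which step made which value is not given in the sources used here. Reads per gene could be recovered from FPKM and gene length as whole numbers, within 0.001, for every value. Their totals were 17748541, 17956077 and 19011019 for the floxed hearts and 17434296, 17872221 and 19360428 for the knockouts. The labels call the mice independent biological replicates.

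The 12144 genes averaging 1 FPKM or more were put on the log2(FPKM + 1) scale and compared between genotypes by limma 3.58.1 (R 4.3.3; variance trend, no covariate). P-values are 2-sided and adjusted over all of these genes by Benjamini-Hochberg, at 0.05. This scale understates changes of low genes. Ratios are of mean FPKM. Python 3.11.15 with pandas 2.3.3, scipy 1.17.1 and numpy 2.4.6 did the rest. The fit was also run on simulated data, with noise drawn separately for each gene and changes larger than any member showed. That run does not cover small changes in genes that move together. The 18 alternatives covered the pseudocount, the filter, the scaling, the variance model, voom on recovered reads, protein-coding genes only, the replicate block and each library left out.

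Members and gene lists were chosen with earlier results of these data known. Genes named are the members past the threshold, the core subunits, the Ndufaf genes, Ndufa4 and Ndufa4l2, the 5 most abundant structural genes, the 3 largest uncalled differences, and up to 4 called genes (or 2) of each other list; further members, markers and Ecsit and Tmem126b were named after their values were seen. Exons came from GENCODE M21 and promoters from RefSeq (GRCm38.p6). Protein sequences were not used here. The values of 1 gene are not reported here.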

Additional observations from a re-analysis of the deposited data

How the results depend on the processing

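Signs were stable: in each of 18 alternatives at least 43 members were negative, and of the named members Ndufa4l2, Ndufa2 and Ndufa3 changed sign, each without CKO 2. With each library left out in turn their log2 fold changes ranged from -0.088 to 0.148, from -0.352 to 0.0161 and from -0.246 to 0.107. Single calls were not. Of 4 structural subunits and 1 assembly factor called lower, 0 and 0 passed with no filter on low values, where 27031 genes were tested. Rescaling every library to the same sum over nuclear protein-coding genes raised the structural count to 15. Leaving out each library gave 0 to 3 structural subunits and 0 to 1 assembly factors called lower: no member passed without flox control 1, flox control 2 or CKO 2, Ndufaf1 alone without flox control 3, Ndufaf1 and Ndufs1 without CKO 1, and Ndufaf1, Ndufs1, Ndufs3 and Ndufv1 without CKO 3. These fits have 3 residual degrees of freedom. The Ndufaf median was -0.24 without CKO 1. The count of members without overlap, run without each library as a check chosen after the data were seen, was 24 to 39 of 46. The share of all tested genes rose as well, from 17.4% with all libraries to between 20.3% and 23.1%. Over the alternatives Ndufaf1 kept its call in 13 of 18 and Ndufs1 in 12 of 18, with Ndufb10 and Ndufab1 in 9 of 18 each and Ndufb2 in 7 of 17.

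With the replicate block, 0 structural subunits and 0 assembly factors were called (715 of all genes, against 1358), and Ythdc1 had an adjusted p of 0.0542. The numbers were not taken to pair mice, because no label says that they do. Same-numbered libraries deviated together with correlations of 0.139, 0.0597 and -0.005, and differently numbered ones with -0.231 to 0.141. With so few libraries per group these values cannot decide whether mice were paired. The adjusted p of Ythdc1 was 0.0944 after rescaling to TPM and 0.0263 to 0.0712 with each library left out in turn. Calls over all genes numbered 798 with no filter and 316 to 1492 with each library left out.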

Other observations

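Outside the rule were 5 Nduf genes of other biotypes. Ndufb1-ps, annotated as a noncoding gene with the name of a distal membrane arm subunit, stood at 57.4, 70.6 and 53.9 FPKM in the floxed hearts and at 44.6, 37.8 and 50.4 FPKM in the knockouts (log2 fold change -0.44, limma adjusted p = 0.114). All CKO libraries lay below the controls. The processed pseudogene Ndufb4c stood at 18.8, 18.2 and 12.6 FPKM in the floxed hearts and at 10.9, 9.62 and 13.2 FPKM in the knockouts (-0.51, adjusted p = 0.119). The processed pseudogene Ndufs6b stood at 10.03, 6.22 and 5.62 FPKM in the floxed hearts and at 5.77, 3.69 and 6.03 FPKM in the knockouts (-0.41, adjusted p = 0.309). Both overlapped between groups. Ndufa11b was at or near 0 in all libraries, at most 0.121 FPKM. Nnt, the proton-pumping nicotinamide nucleotide transhydrogenase, measured 0.0713 to 0.282 FPKM over the 6 libraries, below the filter.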
